A study of Mus musculus with 6 samples.

Results

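Hypoxia-response genes encode factors that act when oxygen is scarce, or are targets that are transcribed more strongly then. Here 10 of them were followed in bulk-seq of whole spinal cord from a mouse model of spinal muscular atrophy (SMA). The members are Hif1a and Epas1, which encode oxygen-regulated transcription factor subunits, and Adm, Bnip3, Egln3, Ankrd37, Pdk1, Ndrg1, Car9 and Kdm3a, which are known targets of these factors. All 10 were found among the 25576 genes listed in at least 1 library. Levels are given in FPKM (fragment counts scaled to exon length and to the number of fragments mapped in the library), and a gene absent from a library's file was taken as 0 FPKM there. Testing required that the mean over the libraries in the fit reached 0.5 FPKM. With all 6 libraries it did for 8 of the 10 members and for 17088 of all genes, while Adm and Car9 lay under it.

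SMA is a motor neuron disease of childhood in which too little SMN protein is made. The study compared SMA mice with their heterozygous controls to find the genes and cell types that differ in the spinal cord. SMA mice (mSmn-/-, hSMN22tg/0) lacked functional mouse Smn and control mice (mSmn+/-, hSMN22tg/0) had 1 functional copy, and all were of the FVB strain and were taken at postnatal day 4. Both groups carried the human SMN2 transgene, so the controls were neither wild type nor free of it. There were 3 libraries of each group, made from total RNA after removal of ribosomal RNA. The bulk-seq is described in the study as triplicates with n = 1 per group, and the labels do not say whether the libraries of a group came from separate animals. The p-values below therefore measure the spread between these libraries, which may be technical.

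Cells sense oxygen through prolyl hydroxylases of the Egln family, which use oxygen to mark the alpha subunits of the hypoxia-inducible factors (HIF) for destruction by the Vhl ubiquitin ligase. When oxygen falls, Hif1a and Epas1 proteins last longer, pair with Arnt or Arnt2 and bind a short core motif near genes for glycolysis, mitochondrial turnover, blood vessel growth and chromatin demethylation. Control of Hif1a and Epas1 acts mostly on the protein, so their transcript levels are not a measure of their activity. In the nervous system, Epas1 is known as a gene of endothelial cells and pericytes, and Arnt2 as the neuronal partner.

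Smn1, the targeted gene, was measured first as a check of the labels. It was listed at 10.4, 8.64 and 11.9 FPKM in the control libraries, and in the SMA libraries at 8.48, 9.30 and 11.1 FPKM. The groups overlapped (log2 fold change -0.09, standard error 0.15, limma, Benjamini-Hochberg adjusted p = 0.819), and the fold change was 0.01 without control replicate 3, -0.20 without control replicate 2 and -0.30 (unadjusted p = 0.0435) with control replicate 2 and SMA replicate 3 both left out. A value for the whole gene does not show which exons are transcribed, so the genotype labels cannot be checked by it alone. Values per library are given in the order of replicates 1, 2 and 3. Libraries are named by their labels throughout, and every direction between SMA and control rests on those labels.

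Control replicate 2 stood apart from the other libraries. Across the 17088 genes, which are not independent replicates, its Pearson correlation of log2(FPKM + 1) with the other libraries was 0.836 to 0.849, while the lowest correlation among the other 5 was 0.983. Alb, the most abundant of 18 hepatocyte markers, was listed at 15894 FPKM in control replicate 2 and at 44.6, 30.7, 24.6, 56.2 and 30.5 FPKM in control replicates 1 and 3 and SMA replicates 1 to 3. The hepatocyte list held 6.65% of the summed FPKM of control replicate 2 and 0.0126% to 0.0277% in the other 5 libraries. Of all genes tested, 24.7% had their highest value in control replicate 2 and 44.9% had their lowest value there. SMA replicate 3 stood apart in Schwann cell markers, with Pmp22 at 4.56 FPKM against 20.4 to 47.2 FPKM in the other libraries. Each library was left out of the fit in turn.

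Read depth is unknown from FPKM. The most frequent ratio of low values between libraries put the control libraries at 1.16, 1.09 and 1.03 times the depth of SMA replicate 1, and the remaining SMA libraries both at 1.01 times. Genes above 0 numbered 21418, 22161 and 21197 in the control files, against 22237, 22201 and 22296 in the SMA files.

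Since FPKM is scaled to gene length, the members could be ordered by level. From the highest mean over the 6 libraries they ran Hif1a (31.6 FPKM), Bnip3 (30.1), Ndrg1 (14.6), Kdm3a (13.0), Pdk1 (10.2), Epas1 (8.56), Egln3 (4.18), Ankrd37 (1.99), Adm (0.496) and Car9. Bnip3 was above Ndrg1 and Epas1 above Egln3 with no overlap of their ranges over the libraries, and every other pair of neighbours in this order had overlapping ranges. Hif1a exceeded Bnip3 in 5 of 6 libraries, the exception being control replicate 2, where Hif1a was at its lowest. The summed FPKM of the 10 members was 123, 121 and 120 in the control libraries, against 110, 104 and 111 in the SMA libraries. As a share of each library's summed FPKM the groups overlapped, with 0.0340%, 0.0292% and 0.0348% in control and 0.0300%, 0.0285% and 0.0302% in SMA. Only control replicate 2 lay within the SMA range, and the other control libraries were above every SMA library.

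**Figure D1:**
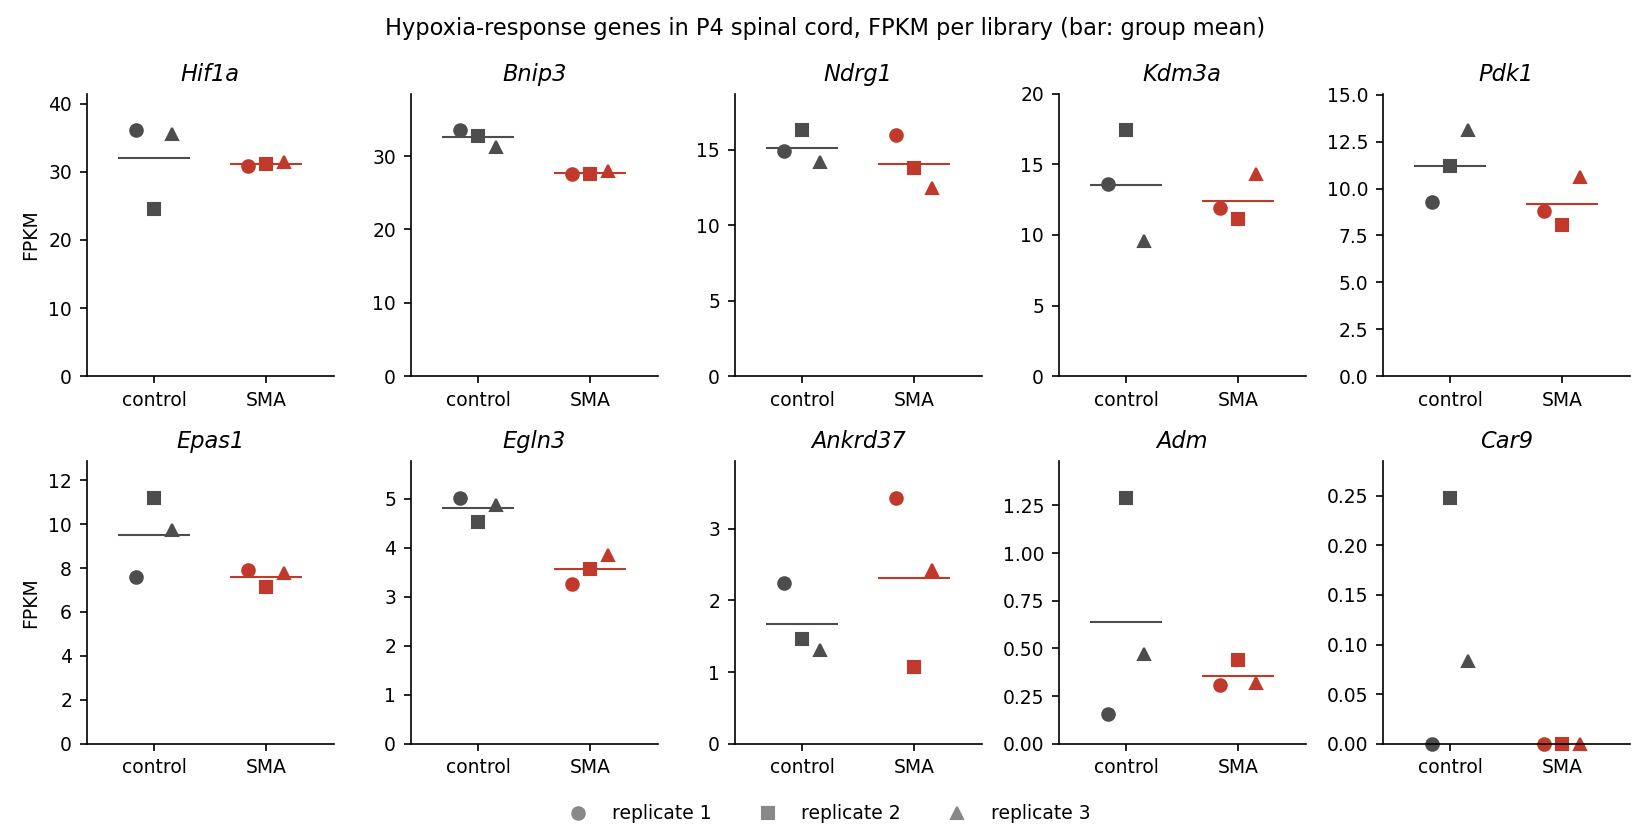
FPKM of the 10 hypoxia-response genes (vertical axes, from 0) in the control and SMA libraries, ordered by mean level. Points are libraries with the marker shape giving the replicate number, and bars are group means, left out for Car9, which was listed at 0 in 4 libraries. Bnip3 and Egln3 were lower in every SMA library than in every control library, and control replicate 2 was highest for 5 of the 10 genes and lowest for Hif1a.

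Hif1a encodes the alpha subunit of the factor that responds in nearly all cells. It was listed at 36.1, 24.5 and 35.6 FPKM in the control libraries, and in the SMA libraries at 30.9, 31.1 and 31.5 FPKM. The SMA libraries lay close together, between the low control replicate 2 and the 2 higher control libraries. Group means were 32.1 ± 6.59 (SD, n = 3) in control and 31.2 ± 0.324 (SD, n = 3) in SMA. The log2 fold change, here and below SMA against control computed on log2(FPKM + 1), a scale on which changes of weakly expressed genes come out too small, was -0.02 (standard error 0.16, 95% interval -0.40 to 0.36), with an unadjusted p = 0.904 and a Benjamini-Hochberg adjusted p = 0.965 in limma. Without control replicate 2 every SMA library was below both control libraries, and the fold change was -0.20 (95% interval -0.33 to -0.07, unadjusted p = 0.00896 from limma). The direction turned without control replicate 1 (0.07) and without control replicate 3 (0.06). The span that the files give Hif1a (chr12:73901375-73949785, mm10) is also given to Gm15283, so reads may have been shared between them.

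Epas1, the subunit of endothelial cells and pericytes, was listed at 7.61, 11.2 and 9.73 FPKM in the control libraries, and in the SMA libraries at 7.90, 7.12 and 7.77 FPKM. Control replicate 1 fell among the SMA libraries and the other control libraries were above them. Its log2 fold change was -0.28 (standard error 0.15, 95% interval -0.63 to 0.07), with an unadjusted p = 0.101 and a Benjamini-Hochberg adjusted p = 0.683 in limma. It was -0.16 without control replicate 2 (unadjusted p = 0.215) and passed an unadjusted p of 0.05 without control replicate 1 (-0.41, unadjusted p = 0.0133). In bulk tissue, fewer cells of a type and less RNA per cell cannot be told apart.

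Endothelial markers were read beside Epas1. Of 10 endothelial markers tested, 6 were lower in SMA at an unadjusted p under 0.05, as were 2.39% of all genes, and none was higher, as were 3.40%. Their median log2 fold change was -0.54, and -0.40 without control replicate 2. The summed FPKM of the list was 72.7, 84.0 and 85.7 in the control libraries, against 61.6, 51.1 and 52.9 in the SMA libraries, so the groups did not overlap. Cldn5, a tight junction gene and the most abundant of them, was listed at 25.8, 20.4 and 25.0 FPKM in the control libraries, and in the SMA libraries at 16.4, 15.7 and 14.4 FPKM (log2 fold change -0.58, limma, Benjamini-Hochberg adjusted p = 0.683). No endothelial marker was at 0 in any library. The count of lower markers was 3 without SMA replicate 2 and 3 without SMA replicate 3, with medians of -0.46 and -0.53. Fewer of all genes were lower in these 2 fits too, as given below. The part of endothelial RNA in the values of Epas1, or of any other member, was not tested.

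Bnip3 and Egln3 were the members whose groups did not overlap over all 6 libraries. Bnip3 encodes a mitochondrial outer membrane protein that marks mitochondria for autophagy, and Egln3 encodes a prolyl hydroxylase that acts on HIF alpha subunits and is itself induced by them. Because both were lower together, their promoters are shown with those of P4ha1, which was also lower, and of Hif3a and P4ha2, which were higher (genes of the wider pathway described below), and of Ankrd37, a target that did not separate the groups. The sequences are the RefSeq windows on GRCm38.p6, from 250 bases before to 50 bases after the start of transcription, 5′ to 3′ on the strand of the gene. Capitals mark the HIF core motif, searched as ACGTG or GCGTG on both strands, so that CACGT and CACGC also count and CACGTG counts once on each strand. The windows lie at chr7:138909457-138909756 (Bnip3, minus strand), chr12:54203825-54204124 (Egln3, minus strand), chr8:45999801-46000100 (Ankrd37, minus strand), chr10:59323046-59323345 (P4ha1, plus strand), chr11:54100674-54100973 (P4ha2, plus strand) and chr7:17062378-17062677 (Hif3a, minus strand).
Bnip3: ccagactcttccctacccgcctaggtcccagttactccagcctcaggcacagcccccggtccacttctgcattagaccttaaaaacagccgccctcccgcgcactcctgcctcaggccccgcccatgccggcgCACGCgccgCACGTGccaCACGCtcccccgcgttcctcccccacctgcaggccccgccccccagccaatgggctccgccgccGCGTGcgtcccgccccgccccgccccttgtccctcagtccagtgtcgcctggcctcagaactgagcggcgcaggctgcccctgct
Egln3: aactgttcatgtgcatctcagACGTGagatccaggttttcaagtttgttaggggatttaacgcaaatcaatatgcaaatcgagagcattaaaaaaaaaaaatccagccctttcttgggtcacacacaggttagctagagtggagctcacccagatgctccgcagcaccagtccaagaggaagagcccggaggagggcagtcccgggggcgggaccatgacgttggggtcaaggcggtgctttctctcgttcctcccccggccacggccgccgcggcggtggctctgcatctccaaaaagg
Ankrd37: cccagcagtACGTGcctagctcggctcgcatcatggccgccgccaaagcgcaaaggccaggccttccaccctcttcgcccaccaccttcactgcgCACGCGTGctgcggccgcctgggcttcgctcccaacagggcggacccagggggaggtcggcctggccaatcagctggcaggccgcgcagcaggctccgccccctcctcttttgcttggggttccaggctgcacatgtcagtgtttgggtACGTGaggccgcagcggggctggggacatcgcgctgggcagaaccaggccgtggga
P4ha1: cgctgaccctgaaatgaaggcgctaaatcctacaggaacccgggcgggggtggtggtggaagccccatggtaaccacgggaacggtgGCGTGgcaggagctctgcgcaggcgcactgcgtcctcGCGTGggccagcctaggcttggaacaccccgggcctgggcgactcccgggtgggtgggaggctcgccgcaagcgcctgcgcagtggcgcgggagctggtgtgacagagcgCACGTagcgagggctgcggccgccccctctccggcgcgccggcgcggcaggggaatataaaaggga
P4ha2: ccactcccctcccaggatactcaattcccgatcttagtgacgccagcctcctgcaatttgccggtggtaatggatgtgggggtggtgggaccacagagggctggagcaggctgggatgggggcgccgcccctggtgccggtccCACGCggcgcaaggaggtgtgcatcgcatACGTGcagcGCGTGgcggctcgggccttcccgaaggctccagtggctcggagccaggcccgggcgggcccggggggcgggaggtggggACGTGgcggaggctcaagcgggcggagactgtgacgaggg
Hif3a: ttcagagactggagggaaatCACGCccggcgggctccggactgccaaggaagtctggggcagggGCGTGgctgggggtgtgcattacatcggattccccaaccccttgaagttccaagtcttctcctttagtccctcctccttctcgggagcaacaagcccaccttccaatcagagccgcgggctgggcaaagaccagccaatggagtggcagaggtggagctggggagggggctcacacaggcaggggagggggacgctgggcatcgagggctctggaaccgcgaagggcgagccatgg

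The Bnip3 window held 5 matches, of which 4 lay within a stretch that began 117 bases before the start. Ankrd37 and P4ha2 held 4 matches each, P4ha1 held 3, Hif3a held 2 and Egln3 held 1, so matches were found beside both directions. Windows were matched by symbol for 8 of the 10 members, Epas1 and Ndrg1 having no entry, and at least 1 window of each of the 8 held a match. Of the 11 windows of these members, 8 held a match, beside 43.8% of all 32851 windows of the same length. The share with a match differs with the content of G and C. At least 1 match was held by 45.2% of windows of 50 to 60% GC and by 67.9% of windows of 60 to 70% GC. For windows of 70 to 80% GC and of 80 to 90% GC the shares were 73.0% and 63.1%. The Bnip3 window had 71.7% GC and the Egln3 window 54.7%, and 1.66% of all windows held 5 or more matches. A match is a description of the letters and not a bound site.

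Bnip3 (ENSMUSG00000078566, chr7:138890836-138909519) was listed at 33.5, 32.8 and 31.3 FPKM in the control libraries, and in the SMA libraries at 27.5, 27.5 and 27.9 FPKM. The lowest control library was above the highest SMA library, and libraries of a group lay close together. Group means were 32.5 ± 1.13 (SD, n = 3) and 27.7 ± 0.185 (SD, n = 3), a difference of -15.0% of the control mean. This gave a log2 fold change of -0.23 (standard error 0.08, 95% interval -0.42 to -0.03), with an unadjusted p = 0.0300 and a Benjamini-Hochberg adjusted p = 0.683 in limma. The exact two-sided permutation test gave p = 0.1, the smallest that 3 libraries against 3 allow. The fold change was about as large without control replicate 2 (-0.22, unadjusted p = 0.00802) and stayed between -0.25 and -0.20 when each library was left out in turn. The unadjusted p was above 0.05 without control replicate 1 (0.0680), SMA replicate 1 (0.0953), SMA replicate 2 (0.0977) and SMA replicate 3 (0.0895), and with libraries rescaled to the same summed FPKM (fold change -0.20, unadjusted p = 0.154). With the replicate number added to the limma fit as a block it was above 0.05 too (fold change -0.23, unadjusted p = 0.101).

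Egln3 (ENSMUSG00000035105, chr12:54178981-54203860) was listed at 5.02, 4.52 and 4.87 FPKM in the control libraries, and in the SMA libraries at 3.27, 3.57 and 3.85 FPKM. All SMA libraries were below all control libraries. Group means were 4.80 ± 0.254 (SD, n = 3) and 3.57 ± 0.288 (SD, n = 3), a difference of -25.8% of the control mean. For Egln3 the log2 fold change was -0.35 (standard error 0.11, 95% interval -0.61 to -0.09), with an unadjusted p = 0.0162 and a Benjamini-Hochberg adjusted p = 0.683 in limma, and the exact permutation test again gave its smallest p of 0.1. Without control replicate 2 the fold change was -0.38 (unadjusted p = 0.0132). The unadjusted p was above 0.05 without SMA replicate 1 (0.0684) and without SMA replicate 2 (0.0540), with fold changes of -0.30 and -0.35. It was also above 0.05 with libraries rescaled to the same summed FPKM (-0.33, unadjusted p = 0.0512) and with quantile normalization (-0.26, unadjusted p = 0.107). The same held with the replicate number as a block, as given below.

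Of the members, Pdk1 and Ndrg1, a metabolic and a stress target, overlapped between the groups. Pdk1, a kinase that keeps pyruvate out of the mitochondrial citric acid cycle, was listed at 9.28, 11.2 and 13.1 FPKM in the control libraries, and in the SMA libraries at 8.80, 8.07 and 10.6 FPKM. Only SMA replicate 3 reached into the range of the control libraries. For Pdk1 the log2 fold change was -0.26 with all libraries and -0.26 without control replicate 2 (standard error 0.16 in both), with an unadjusted p = 0.140 and a Benjamini-Hochberg adjusted p = 0.683 in limma for all libraries. Without control replicate 1 it was -0.38 (unadjusted p = 0.0490), and without control replicate 3 it was -0.15 (unadjusted p = 0.375). Ndrg1, a stress-response gene also known for its role in myelinating glia, ranged from 12.5 FPKM in SMA replicate 3 to 16.3 FPKM in control replicate 2 (log2 fold change -0.10, 95% interval -0.39 to 0.18). Its fold change was -0.02 without SMA replicate 3, -0.05 without control replicate 2 and -0.19 without SMA replicate 1. Its span in the files is shared with Gm2895.

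Kdm3a, a histone H3 lysine demethylase, varied more within the control group than between the groups. It was listed at 13.6, 17.4 and 9.57 FPKM in the control libraries, and in the SMA libraries at 11.9, 11.1 and 14.3 FPKM. The control libraries held both the highest and the lowest value. The log2 fold change of Kdm3a was -0.08 (95% interval -0.59 to 0.42) and turned to 0.11 without control replicate 2.

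Ankrd37, an ankyrin repeat protein, was the only member tested with a positive log2 fold change (0.26, standard error 0.30, 95% interval -0.46 to 0.97). It was listed at 2.24, 1.46 and 1.31 FPKM in the control libraries, and in the SMA libraries at 3.43, 1.07 and 2.43 FPKM. SMA replicate 2 was the lowest library and SMA replicate 1 the highest, 3.20 times as high, the widest spread among the 8 members tested. The sign held without each library in turn, from 0.01 without SMA replicate 1 to 0.56 without SMA replicate 2. The span given to Ankrd37 is shared with Lrp2bp and Ufsp2, which makes its level uncertain.

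Adm and Car9 were near the floor of these files. Adm, which encodes the vasodilator peptide adrenomedullin, was listed at 0.156, 1.29 and 0.473 FPKM in the control libraries, and in the SMA libraries at 0.306, 0.437 and 0.318 FPKM. Its highest value was in control replicate 2, and without that library the SMA values lay between the other control values. In the 5 fits that left out another library, Adm reached the mean of 0.5 FPKM for testing through its value in control replicate 2. Its log2 fold changes there were -0.44 to -0.19, with an unadjusted p of 0.134 or more in limma. They rest on the library that let Adm into the fit and give no support for a difference. Car9, a carbonic anhydrase at the cell surface, was listed at 0.248 FPKM in control replicate 2, at 0.0834 FPKM in control replicate 3 and at 0 in the other 4 libraries, and its span is shared with Gm12454. A difference in Car9 was not detectable at these levels.

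The members were then set beside all genes tested. No gene of the 17088 passed an adjusted p of 0.05 (0%) in limma, and the smallest adjusted p was 0.683. At an unadjusted p under 0.05, 2 of the 8 members tested, Bnip3 and Egln3, were lower in SMA, where 409 genes (2.39%) were lower, and 0 members were higher, where 581 genes (3.40%) were higher. The groups did not overlap for the same 2 members, both lower, and for 1140 lower (6.67%) and 1757 higher (10.3%) of all genes. Of the 8 members, 7 had a negative log2 fold change, as did 42.0% of all genes, and the median was -0.16 for the members and 0.04 for all genes. With 8 genes, each of these shares rests on a few members and was not tested.

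Without control replicate 2, 16574 genes were tested and 3 of the 8 members, Hif1a, Bnip3 and Egln3, were lower at an unadjusted p under 0.05, where 862 genes (5.20%) were lower. None of the members was higher, where 874 genes (5.27%) were higher. The groups did not overlap for these 3 members, all lower, beside 2302 lower (13.9%) and 2351 higher (14.2%) of all genes. The members' median was -0.18 and that of all genes 0.00. Without SMA replicate 3, 1 of 9 members tested was lower (Egln3) beside 125 of all genes, and with both of these libraries left out 3 of 8 were lower beside 533. The count of members was 3 of 9 without control replicate 1, 2 of 9 without control replicate 3 and 0 of 9 without SMA replicate 1 or SMA replicate 2. Adm was the member added where 9 were tested. The counts of all genes moved as well, to 573 lower and 1032 higher without control replicate 1, 712 and 1040 without control replicate 3, 306 and 238 without SMA replicate 1, 142 and 255 without SMA replicate 2, and 125 and 214 without SMA replicate 3. Without control replicate 2, Snora74a and Rpph1, noncoding RNA genes named after their values were seen, passed an adjusted p of 0.05 in limma with Benjamini-Hochberg adjustment (higher in SMA, log2 fold changes 3.13 and 0.63, adjusted p = 0.0215 and 0.0424). Snora74a was listed at 0 in both remaining control libraries, so its fold change depends on the pseudocount of 1, and at 2.99 FPKM in control replicate 2.

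**Figure D2:**
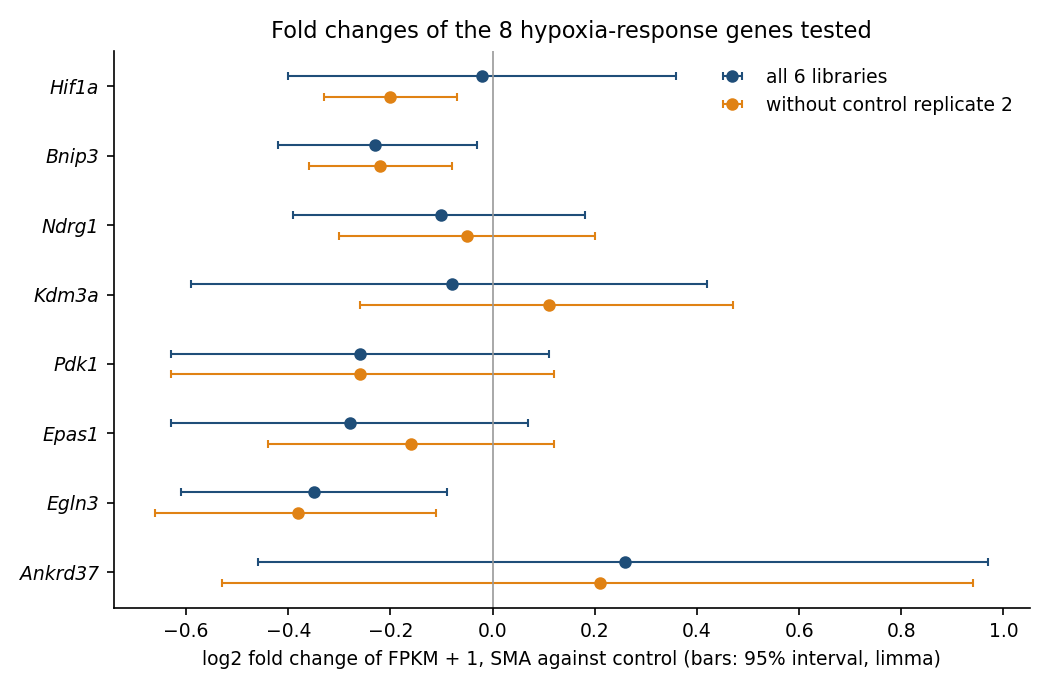
Log2 fold change of FPKM + 1, SMA against control (horizontal axis), of the 8 hypoxia-response genes tested, with 95% intervals from limma, for all 6 libraries and without control replicate 2. The intervals of Bnip3 and Egln3 lay below 0 in both, that of Hif1a only without control replicate 2, and Kdm3a changed sign.

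The wider pathway was described with 3 lists. The first held 15 genes of the HIF machinery, all of which were tested. In this list, 1 gene was higher at an unadjusted p under 0.05 and 0 were lower, beside 3.40% and 2.39% of all genes, and the median log2 fold change was 0.11. Hif3a, which encodes an alpha subunit known to restrain the other factors and to be induced by hypoxia and by glucocorticoids, was listed at 1.92, 2.12 and 1.77 FPKM in the control libraries, and in the SMA libraries at 2.99, 3.63 and 5.41 FPKM. Every SMA library was above every control library, with SMA replicate 3 the highest. Group means were 1.94 ± 0.175 (SD, n = 3) and 4.01 ± 1.25 (SD, n = 3). The log2 fold change was 0.74 (standard error 0.19, 95% interval 0.28 to 1.20), with an unadjusted p = 0.00681 and a Benjamini-Hochberg adjusted p = 0.683 in limma, and 0.79 without control replicate 2. Its unadjusted p stayed under 0.05 in all 14 alternatives, with fold changes from 0.55 to 0.97 and adjusted p from 0.315 to 0.907 in limma.

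The most abundant genes of the machinery depended on control replicate 2. Arnt2, the neuronal partner subunit, was listed at 46.4, 28.7 and 42.2 FPKM in the control libraries, and in the SMA libraries at 50.5, 48.7 and 48.8 FPKM. The groups did not overlap, and the log2 fold change was 0.36 with all libraries (unadjusted p = 0.0886) but 0.15 without control replicate 2 (unadjusted p = 0.0412) and 0.49 without control replicate 1 (unadjusted p = 0.0350), all from limma. Elob and Eloc, subunits of the Vhl ligase complex named Tceb2 and Tceb1 in the files, were also lowest in control replicate 2, at 50.1 and 26.5 FPKM. Without that library Eloc was lower in SMA (log2 fold change -0.26, unadjusted p = 0.0170), against -0.03 with it, and Elob was at -0.02, against 0.11 with it. In the fit without control replicate 2 the machinery had 2 genes lower and 3 higher, beside 5.20% and 5.27% of all genes, and its median was -0.02.

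The glycolytic targets, 18 genes that were all tested, had 2 genes higher and 0 lower at an unadjusted p under 0.05, beside 3.40% and 2.39% of all genes. The median log2 fold change of the list was 0.06. Aldoc, the aldolase of brain, was listed at 222, 138 and 195 FPKM in the control libraries, and in the SMA libraries at 232, 267 and 265 FPKM. Pfkl, a phosphofructokinase subunit, was listed at 21.8, 20.4 and 28.1 FPKM in the control libraries, and in the SMA libraries at 28.8, 29.2 and 30.7 FPKM. For both genes the groups did not overlap and control replicate 2 was lowest. Their log2 fold changes were 0.48 and 0.34 (limma, Benjamini-Hochberg adjusted p = 0.683 for each), and 0.29 and 0.25 without control replicate 2. The unadjusted p of Aldoc (0.0420) was above 0.05 without control replicate 3 (0.0604) and without SMA replicates 1, 2 and 3 (0.0629, 0.118 and 0.116), with no filter on low FPKM (0.0559), with the same summed FPKM (0.0781) and with quantile normalization (0.0547). That of Pfkl (0.0423) was above it without control replicate 1 (0.114) and without SMA replicates 1, 2 and 3 (0.0852, 0.0933 and 0.122), with the same summed FPKM (0.102) and with control replicate 2 and SMA replicate 3 both left out (0.123). With the replicate number as a block, that of Aldoc was also above 0.05, as given below.

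Aldoa and Gapdh, which with Aldoc are the 3 most abundant of the list, did not separate the groups. Aldoa was listed at 303, 175 and 308 FPKM in the control libraries, and in the SMA libraries at 289, 302 and 302 FPKM, and Gapdh at 267, 177 and 182 FPKM and at 210, 225 and 238 FPKM. Both were lowest in control replicate 2. The log2 fold change of Aldoa was 0.23 and turned to -0.04 without that library, and that of Gapdh was 0.13 and 0.02, or 0.32 (unadjusted p = 0.0422) without control replicate 1. In the fit without control replicate 2 the list had 1 gene lower and 3 higher, beside 5.20% and 5.27% of all genes, and its median was 0.01.

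The third list held 30 other HIF targets, of which 29 were in the files and 26 were tested. At an unadjusted p under 0.05, 1 was lower and 2 were higher, beside 2.39% and 3.40% of all genes, and the median log2 fold change of the list was 0.00. Of the 29, 11 had their highest value in control replicate 2. P4ha1 and P4ha2 encode catalytic subunits of collagen prolyl hydroxylase and differed in opposite directions. P4ha1 was listed at 8.40, 7.89 and 8.21 FPKM in the control libraries, and in the SMA libraries at 7.27, 6.05 and 6.59 FPKM. P4ha2 was listed at 3.83, 4.75 and 4.85 FPKM in the control libraries, and in the SMA libraries at 6.70, 5.68 and 5.44 FPKM. The groups overlapped for neither gene, with log2 fold changes of -0.27 and 0.34 (limma, Benjamini-Hochberg adjusted p = 0.683 for each), and -0.29 and 0.38 without control replicate 2. The unadjusted p of P4ha1 (0.0372) was above 0.05 without control replicates 1 and 3 (0.0821 and 0.0716) and SMA replicates 2 and 3 (0.146 and 0.103), with the same summed FPKM (0.117), with quantile normalization (0.0683) and with control replicate 2 and SMA replicate 3 both left out (0.0676). That of P4ha2 (0.0352) was above it without control replicate 1 (0.0951) and SMA replicates 1, 2 and 3 (0.131, 0.0726 and 0.0520) and with median ratio scaling (0.0765). With the replicate number as a block, those of P4ha1 and P4ha2 were both above 0.05, as given below.

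Ddit4, a stress-induced inhibitor of mTOR signalling that also responds to glucocorticoids, was listed at 19.9, 13.1 and 19.2 FPKM in the control libraries, and in the SMA libraries at 23.5, 22.0 and 24.6 FPKM. Every SMA library was above every control library. Its log2 fold change was 0.43 (standard error 0.16), with an unadjusted p = 0.0380 and a Benjamini-Hochberg adjusted p = 0.683 in limma, and 0.25 without control replicate 2 (unadjusted p = 0.0105). The unadjusted p was above 0.05 without SMA replicates 1, 2 and 3 (0.0910, 0.0657 and 0.109) and with the same summed FPKM (0.0832).

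Of the most abundant genes of this list, Wsb1, a ubiquitin ligase adaptor, ranged from 71.2 to 80.3 FPKM in control and from 82.8 to 92.7 FPKM in SMA (log2 fold change 0.18, unadjusted p = 0.113 from limma). Tfrc, the transferrin receptor, which is abundant in erythroid precursors, was listed at 42.0, 89.2 and 42.0 FPKM in the control libraries, and in the SMA libraries at 35.1, 31.0 and 36.9 FPKM. It was highest in control replicate 2 and below both other control libraries in every SMA library. For Tfrc the log2 fold change was -0.64 (unadjusted p = 0.0662), and it passed an unadjusted p of 0.05 without control replicate 1 (-0.82, unadjusted p = 0.0461), control replicate 2 (-0.29, unadjusted p = 0.00825) and control replicate 3 (-0.82, unadjusted p = 0.0457). Ppfia4, a liprin, had a log2 fold change of 0.24 (unadjusted p = 0.102), and 0.36 without control replicate 3 (unadjusted p = 0.0100). In the fit without control replicate 2 the list had 2 genes lower and 2 higher, beside 5.20% and 5.27% of all genes.

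**Figure D3:**
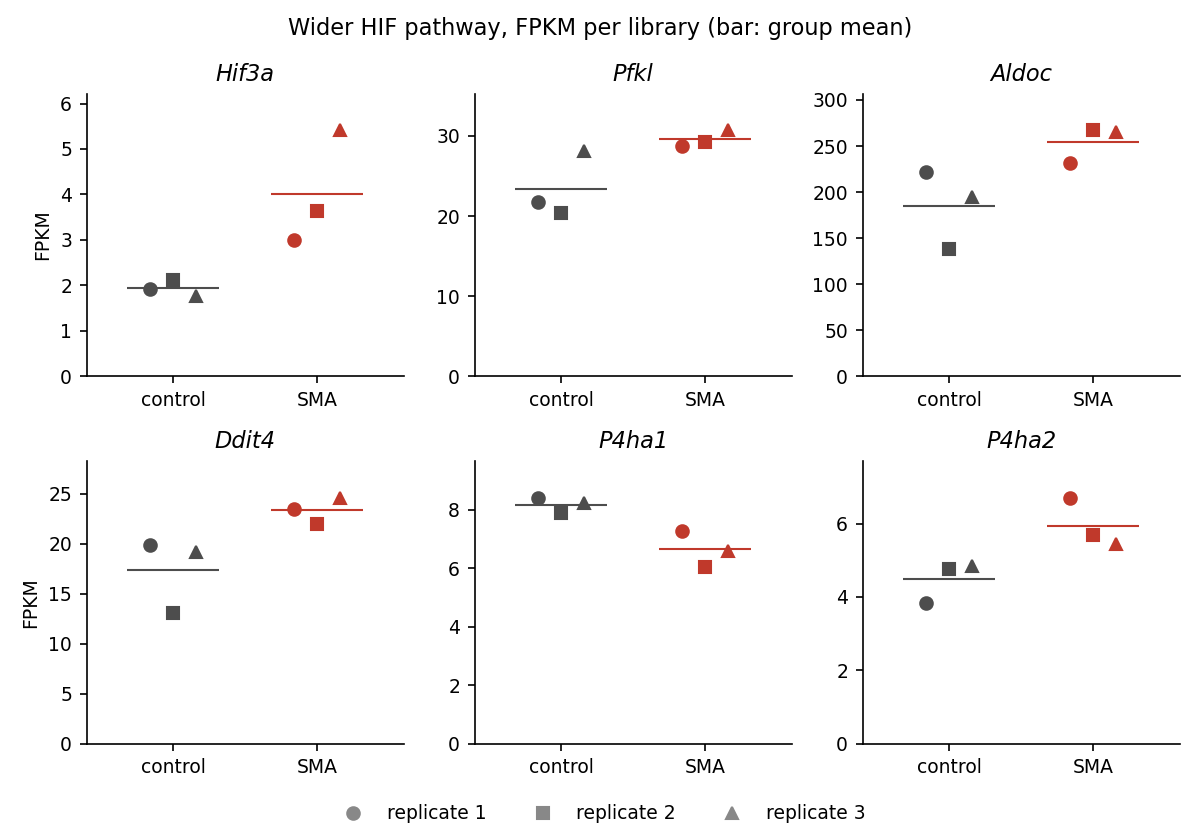
FPKM (vertical axes, from 0) of the 6 genes of the wider HIF lists with an unadjusted p under 0.05 and groups that did not overlap. Points are libraries with the marker shape giving the replicate number, and bars are group means. Hif3a, Pfkl, Aldoc, Ddit4 and P4ha2 were higher and P4ha1 was lower in every SMA library than in every control library.

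**Figure D4:**
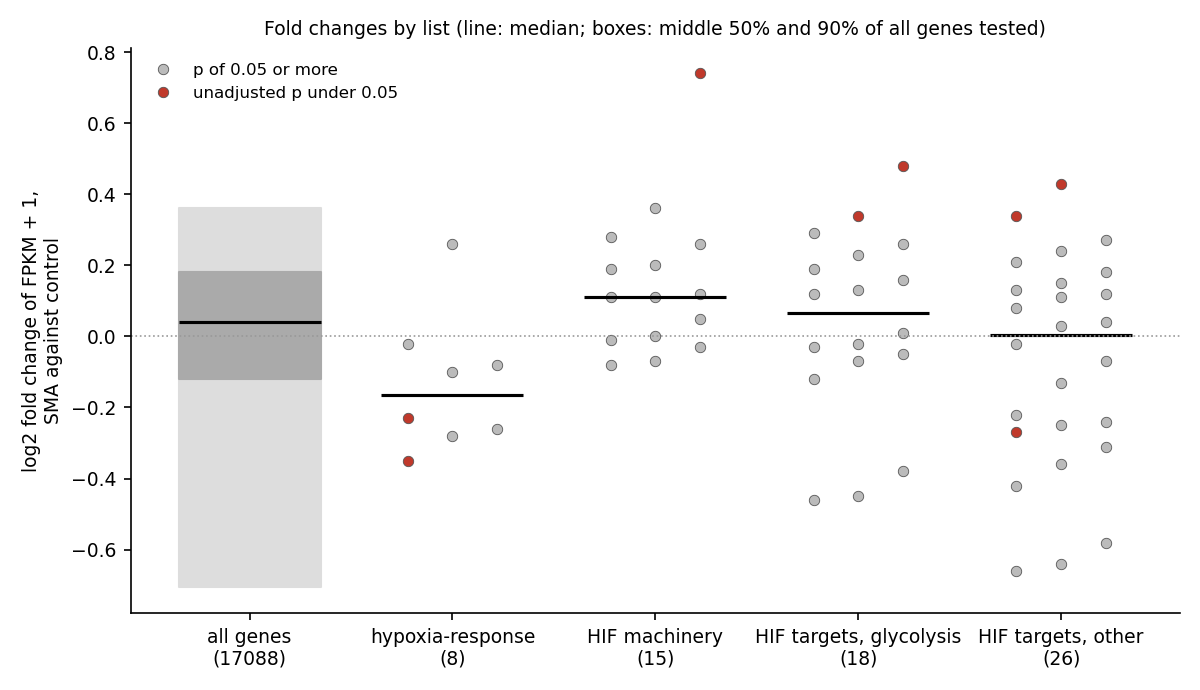
Log2 fold change of FPKM + 1, SMA against control (vertical axis), of the hypoxia-response genes and the 3 wider lists beside all 17088 genes tested. Points are genes, in red at an unadjusted p under 0.05, lines are medians, and the boxes span the middle 50% and 90% of all genes. The medians were -0.16 for the hypoxia-response genes, 0.11, 0.06 and 0.00 for the lists and 0.04 for all genes.

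Markers of cells that whole spinal cord could hold or carry along were read beside these values. Besides hepatocyte markers (all 18 highest in control replicate 2, median log2 fold change -2.30, and 0.16 over the 12 still tested without that library, with Apoc3, Tat and Tdo2 at 0 in some of the other libraries), blood cell markers set control replicate 2 apart. Of 10 erythroid markers, 9 were in the files, and their summed FPKM was 18855 in control replicate 2 and 1115 to 1862 in the other libraries, led by Hbb-bs at 7026 FPKM against 424 to 694. The 9 neutrophil markers summed to 436 FPKM in control replicate 2 and to 6.66 to 13.2 FPKM elsewhere, led by S100a8 at 205 FPKM, and Elane was at 0 in control replicate 3 and SMA replicate 1. The members highest in this library were Ndrg1, Kdm3a, Epas1, Adm and Car9. The part of hepatocyte or blood cell RNA in their values was not tested, and their values without that library are given above.

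Markers of the vessel wall and of the coverings of the cord also differed between libraries. The 8 pericyte and smooth muscle markers summed to 44.6, 50.0 and 55.9 FPKM in the control libraries, against 44.2, 36.9 and 39.1 FPKM in the SMA libraries. Of 7 tested, 3 were lower at an unadjusted p under 0.05, among them the most abundant, Rgs5, beside 2.39% of all genes. The count was 0 without SMA replicate 2 or SMA replicate 3. The 8 fibroblast markers summed to 267, 829 and 216 FPKM in the control libraries, against 280, 141 and 79.2 FPKM in the SMA libraries. Igf2 made up most of the sum of control replicate 2, at 638 FPKM, and was at 19.6 to 75.4 FPKM in the other libraries. In control replicate 2, Col1a1, Col1a2 and Pdgfra were the lowest of the control libraries, and Col3a1, Dcn, Lum and Mfap5 were the highest. The part of hepatocyte RNA in Igf2 was not tested. Of the 8 fibroblast markers, 1 was lower at an unadjusted p under 0.05, beside 2.39% of all genes. The median log2 fold change of the fibroblast markers was -1.06, from -1.59 without SMA replicate 1 to -0.54 without SMA replicate 3, and the count of lower markers was 5 without SMA replicate 1 and 0 without control replicate 1, control replicate 3, SMA replicate 2 or SMA replicate 3. With the replicate number as a block the count was 3. The 6 Schwann cell markers summed to 50.3, 43.9 and 70.9 FPKM in the control libraries, against 59.4, 30.0 and 6.73 FPKM in the SMA libraries, led by Pmp22, with Pmp2 at 0 in SMA replicate 3 and 0 of 6 past an unadjusted p of 0.05 in limma. Without SMA replicate 1, 3 of them were lower, and their median log2 fold change of -0.80 was -1.20 without that library and -0.23 without SMA replicate 3. The log2 fold change of Pmp22 was -1.20 (unadjusted p = 0.120 from limma), -1.83 without SMA replicate 1 (unadjusted p = 0.0197) and -0.40 without SMA replicate 3. Ndrg1 was at its lowest, 12.5 FPKM, in SMA replicate 3, and the part of Schwann cell RNA in it was not tested.

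Markers of the cord's own cells and of skeletal muscle were read last. The 10 neuronal markers summed to 1600, 861 and 1582 FPKM in the control libraries, against 1558, 1692 and 1690 FPKM in the SMA libraries, led by Stmn2. All 10 had a positive log2 fold change, with a median of 0.34 that was 0.04 without control replicate 2. The 8 astrocyte markers, led by Gfap, ranged from 585 to 739 FPKM in sum, and the 8 oligodendrocyte markers, led by Mbp, from 734 in SMA replicate 1 to 1307 in control replicate 3. The 6 microglial markers, led by P2ry12, summed to 46.3 to 59.1 FPKM, and the 8 skeletal muscle markers, led by Acta1, to 1.50 to 7.02 FPKM, with Tnni2 at 0 in control replicate 3 and SMA replicate 3. In none of these 5 lists did a gene pass an unadjusted p of 0.05 in the main limma fit. Rbfox3, a neuronal gene, passed it with a pseudocount of 0.1 (0.0495), median ratio scaling (0.0368) and quantile normalization (0.0373). Without control replicate 2, the neuronal genes Rbfox3 and Syt1 were higher (unadjusted p = 0.0167 and 0.0437) and the astrocyte gene Aqp4 (0.00521) and the oligodendrocyte genes Cnp and Mag (0.0127 and 0.0283) were lower, all named, as are those below, after their values were seen. Without control replicate 1, Rbfox3, Syt1 and Gad1 were higher, and without control replicate 3, Rbfox3, Nefm and the astrocyte gene Fgfr3 were higher, each at an unadjusted p under 0.05. The neuronal median was 0.50 and 0.47 in these 2 fits. The oligodendrocyte median was -0.23 with all libraries and lay between -0.33 (control replicate 2 left out) and -0.07 (control replicate 3 left out). Neuronal, astrocyte and oligodendrocyte markers were listed in every library. The labels name the tissue as spinal cord and do not speak of markers.

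**Figure D5:**
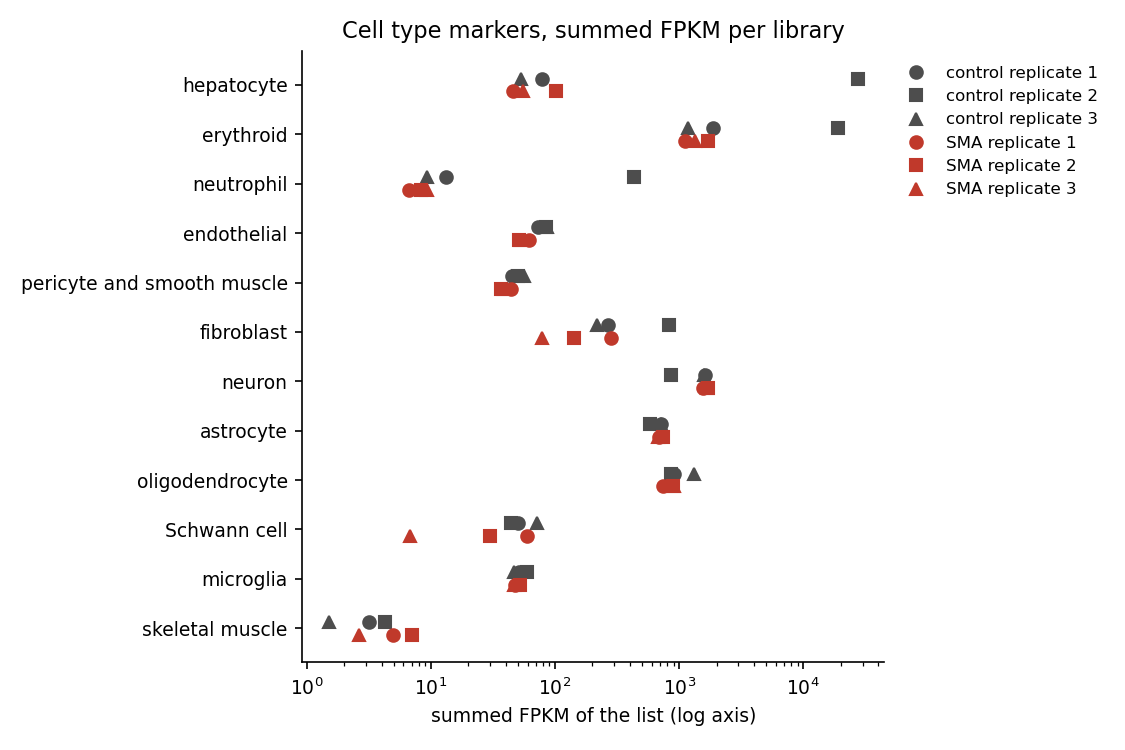
Summed FPKM (horizontal log axis) of 12 lists of cell type markers in each library, control in grey and SMA in red, with the marker shape giving the replicate number. Control replicate 2 lay apart for hepatocyte, erythroid and neutrophil markers and SMA replicate 3 for Schwann cell markers, while the endothelial sums were lower in all 3 SMA libraries.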

How the data were processed

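Bulk-seq of whole spinal cord was analysed for 3 SMA and 3 control libraries, grouped by their labels. The authors removed ribosomal RNA, made strand-specific libraries, aligned reads with HISAT2 to mm10 and deposited FPKM computed by Cufflinks (names from the submitters' processing notes; versions are not given in the sources used here). Whether strand was used in the computation is not given. The members and lists were chosen with earlier results of these data known.

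The study's count-based comparison could not be run on FPKM. On the scale of log2(FPKM + 1), genes whose mean reached 0.5 FPKM were fitted with lmFit and eBayes (trend) of limma 3.58.1 in R 4.3.3, two-sided, with no covariate and Benjamini-Hochberg adjustment over all genes tested. The procedure was tested on simulated data. Exact permutation tests used scipy 1.17.1 on log2(FPKM + 1). Relative depth was read from values under 0.15 FPKM. File starts were counted from 0 and are given from 1. Genes named are the members, Smn1, the 3 most abundant genes of each pathway list with up to 3 per direction at an unadjusted p under 0.05, no overlap and the largest fold change, and the most abundant gene of each marker list. Marker genes listed at 0, Rbfox3, Syt1, Gad1, Nefm, Aqp4, Fgfr3, Cnp, Mag, Snora74a and Rpph1 were named after their values were seen. Of the planned markers, 1 Schwann cell and 1 microglial gene are not reported here, and sums leave them out. Epo and Ahsp were found under no name in the files used. Alternatives were a pseudocount of 0.1, no filter or a minimum mean of 1, 3 other scalings, the replicate number as a block, each library left out and, chosen after seeing the data, control replicate 2 and SMA replicate 3 left out together.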

Additional observations from a re-analysis of the deposited data

How the results depend on the processing

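Precision is limited by 3 libraries a group and an unknown read depth. Over the 14 alternatives the members' median log2 fold change stayed negative, from -0.25 to -0.14, while that of all genes ranged from 0.00 to 0.07. The causes of the changes below were not tested.

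Leaving out each library in turn gave 0 to 2 genes past an adjusted p of 0.05, 125 to 862 lower and 214 to 1040 higher genes past an unadjusted p of 0.05, 0 to 3 lower members, and a members' median of -0.25 to -0.18. It gave 0 to 2 lower and 1 to 5 higher genes of the HIF machinery (median -0.02 to 0.21), 0 to 1 lower and 0 to 3 higher glycolytic targets (0.01 to 0.06), and 0 to 2 lower and 0 to 3 higher other targets (-0.03 to 0.02). The members tested numbered 9, Adm among them, in each of these fits but the one without control replicate 2, where they numbered 8. Fold changes that turned ranged from -0.20 to 0.07 for Hif1a, -0.29 to 0.11 for Kdm3a, -0.02 to 0.32 for Elob, -0.26 to 0.13 for Eloc, -0.04 to 0.37 for Aldoa, -1.95 to 0.06 for Hbb-bs, -0.10 to 0.15 for Gfap, -0.11 to 0.21 for P2ry12 and -0.20 to 0.01 for Smn1.

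Rescaling to the same summed FPKM gave 387 lower and 336 higher genes, 0 lower members (-0.20 for Bnip3 and -0.33 for Egln3), 0 higher glycolytic targets (median 0.09), 1 higher other target (median 0.03) and a fold change of 0.02 for Gfap. Median ratio scaling gave medians of -0.22 for the members, 0.01 for glycolytic and -0.05 for other targets, with 2 lower and 1 higher other targets, and -0.05 for P2ry12. Quantile normalization gave 1 lower member, 1 higher glycolytic target and 0 lower other targets (median -0.02). No filter on low FPKM gave 882 higher genes, 2 higher genes of the machinery, 1 higher glycolytic target and a median of -0.02 for other targets. Lower and higher genes were 567 and 529 with median ratio scaling and 337 and 639 with quantile normalization, against 409 and 581.

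With the replicate block, 303 genes were lower and 356 higher, 0 members were lower (unadjusted p = 0.101 for Bnip3 and 0.0527 for Egln3), and 1 glycolytic and 1 other target were higher. Its unadjusted p was also above 0.05 for Aldoc (0.0747), P4ha1 (0.0785) and P4ha2 (0.0884), and Acta1 passed it (0.0430). Deviations from the group means correlated at -0.037, 0.016 and 0.077 between same-numbered libraries and at -0.055 to 0.043 between the others. With 3 libraries a group and control replicate 2 apart from the rest, these values cannot decide whether the numbers mark pairs.

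With control replicate 2 and SMA replicate 3 both left out, 1 gene (Snora74a) passed an adjusted p of 0.05, the members' median was -0.19, and the machinery had 2 lower genes (median 0.01) and the glycolytic targets 1 lower and 1 higher (median -0.02). Fold changes that turned were 0.03 for Ndrg1, 0.01 for Kdm3a, -0.05 for Aldoa, -0.02 for Gapdh, 0.01 for Alb, 0.02 for Hbb-bs and -0.08 for P2ry12. At an unadjusted p under 0.05 in limma, 3 of 8 oligodendrocyte and 1 of 8 astrocyte markers were lower. Higher were 2 of 2 skeletal muscle markers tested, and no neuronal or microglial marker passed. All genes at that p numbered 533 lower and 524 higher.

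Of the single-gene values of members under the alternatives, 92 kept their direction and side of an unadjusted p of 0.05, 11 lost it, 4 gained it and 5 turned. For the other named genes these numbers were 306, 37, 16 and 19.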
